A study of Mus musculus with 56 samples.

Results

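The collagen chain genes encode the polypeptides that wind in threes into collagen molecules, and they were read here as one family across mouse liver under diet and drug treatment. Members were every row of the deposited gene table whose symbol is Col, a number, the letter a and a second number. This rule found 44 genes among 21935, and 34 of them had at least 5 reads in at least 3 mice and entered the tests, among 14105 genes that did. By class these were 9 of 11 fibrillar chains, 6 of 6 basement membrane chains (type IV), 6 of 6 beaded filament chains (type VI), 3 of 4 transmembrane chains and 10 of 17 others. The 10 members that did not pass were Col2a1, Col11a1, Col17a1, Col9a1, Col9a2, Col10a1, Col19a1, Col22a1, Col26a1 and Col28a1, and Col2a1 and Col26a1 had no read in any mouse.

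The livers came from male C57BL/6J mice, with no altered allele in any group, fed either plain chow or the AMLN diet, a feed high in fat, fructose and cholesterol that brings on diet-induced obesity with metabolic dysfunction–associated steatohepatitis (DIO-MASH). There were 8 mice in each of 7 groups, dosed under the skin once a day for 8 weeks: chow with vehicle, DIO-MASH with vehicle, and DIO-MASH with zalfermin at 0.05 mg/kg (low) or 0.2 mg/kg (high), semaglutide at 3 µg/kg (low) or 120 µg/kg (high), or both drugs together. Zalfermin mimics the metabolic hormone FGF21 with a prolonged action, and semaglutide activates the GLP-1 receptor. The combination is described by the study's methods as both low doses given as separate injections, whereas the design text deposited with the data calls both doses high, and the sample labels give no dose; the methods are followed here. The DIO-MASH mice were admitted by steatosis and fibrosis on a liver biopsy, so every group but chow had been selected for fibrotic livers. They were randomized to treatments, stratified mainly by baseline staining for the Col1a1 protein and also by body weight. Ages are not in the labels; the methods place the start of the diets in young mice, many months before dosing.

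Collagens are the main proteins of the extracellular matrix. Fibrillar collagens (types I, III and V) form the cross-banded fibres of scar tissue, type IV forms the sheet-like network of basement membranes, type VI forms beaded microfibrils around cells, and the fibril-associated collagens (types XII, XIV and XVI) decorate the surface of fibres. In liver, hepatic stellate cells and portal fibroblasts are the main sources of fibrillar collagen during fibrosis, whereas type XVIII, whose C-terminal piece is endostatin, is made mainly by hepatocytes.

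The libraries held between 5228187 and 20885786 reads on genes, with a median of 12206788. Chow mouse 8 stood furthest from the libraries of its own group (mean Spearman correlation 0.947) and low-dose semaglutide mouse 6 came next (0.967). The study left out 1 low-dose semaglutide library after quality control, but the table does not mark it, so all 56 libraries were used and results that turn on these mice are also given without them. All 6 hepatocyte markers passed the filter, and their summed level was high, from 61270 to 248300 CPM (counts per 1000000 reads), as a liver label requires. In whole liver, a lower level of a transcript can mean fewer cells of the type that makes it or less RNA in each, and these cannot be told apart here. Each library came from a separate mouse, so the p-values measure the spread between mice.

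DNA before the RefSeq start of 3 chains that were lower in chow (Col3a1, Col1a2 and Col5a1) and of Col18a1, which was higher, is shown for orientation, as the 250 bases before that start on the GRCm38.p6 build, cut where another exon begins. The Col1a2 stretch lies before its RefSeq start but inside the gene in the annotation used for coordinates here (chr6:4504814-4541544). Of the 34 tested chains 28 had such a window in the reference, and Col1a1 is not among them. Capitals mark a CCAAT box, a TATA box spelled TATAAA or one of the GC kind spelled GGGCGG on either strand, a box on the opposite strand being shown as its reverse complement. Each is printed 5′ to 3′ on the strand of its gene.
Col3a1, chr1:45311288-45311537, plus strand: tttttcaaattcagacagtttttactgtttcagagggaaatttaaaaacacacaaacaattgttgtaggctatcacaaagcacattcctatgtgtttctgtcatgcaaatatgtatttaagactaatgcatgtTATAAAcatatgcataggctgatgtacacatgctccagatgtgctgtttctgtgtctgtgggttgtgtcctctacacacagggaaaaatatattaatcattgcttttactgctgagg
Col1a2, chr6:4505370-4505492, plus strand: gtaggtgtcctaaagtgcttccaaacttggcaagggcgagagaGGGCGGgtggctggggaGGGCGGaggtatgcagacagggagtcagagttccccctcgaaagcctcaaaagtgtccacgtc
Col5a1, chr2:27886175-27886424, plus strand: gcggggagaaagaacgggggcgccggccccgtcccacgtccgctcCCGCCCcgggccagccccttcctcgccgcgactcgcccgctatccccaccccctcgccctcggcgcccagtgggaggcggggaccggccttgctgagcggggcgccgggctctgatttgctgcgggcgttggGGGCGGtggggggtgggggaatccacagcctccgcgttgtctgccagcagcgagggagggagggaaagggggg
Col18a1, chr10:77166549-77166780, minus strand: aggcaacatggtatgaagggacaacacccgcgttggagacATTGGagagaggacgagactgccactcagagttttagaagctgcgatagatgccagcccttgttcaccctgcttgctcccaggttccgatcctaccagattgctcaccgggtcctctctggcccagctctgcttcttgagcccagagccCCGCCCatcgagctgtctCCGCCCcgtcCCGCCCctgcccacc

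The TATA letters of Col3a1 begin 117 bases before its start, and its window holds no GC box. Over all chains, TATAAA occurred in the windows of 3 of 28 chains (Col3a1, Col11a2 and Col13a1), CCAAT in 10 and GGGCGG in 19. Among all 32851 windows of the reference the shares were 12.4%, 33.8% and 32.7%. The window of Col18a1 carries 3 GC boxes, at 61, 43 and 33 bases before the start, and that of Col5a1 carries 1 at 205 and 1 at 73. The window of Col1a2 also holds a CCAAT box at 109 bases before the start, in the part that was cut and is not printed. These matches describe letters only, and nothing was measured on the windows.

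The chains lie in several pairs along the genome (GRCm38 coordinates). Col1a1 (ENSMUSG00000001506) occupies chr11:94936224-94953042, Col4a1 (ENSMUSG00000031502) chr8:11198423-11312826 and Col18a1 (ENSMUSG00000001435) chr10:77052178-77166548. Col4a1 and Col4a2 stand head to head on chromosome 8 with first exons overlapping by 22 bases, and Col4a3 and Col4a4 stand head to head on chromosome 1 with 71 bases between them. Col3a1 and Col5a2 lie tail to tail 24614 bases apart on chromosome 1. The strand setting of the authors' counting is not given in the sources used here, so reads in shared exons cannot be assigned. The exon bases shared with 1 other gene amount to 5.65% in Col4a3 and 6.07% in Col9a3. In each other chain that shares any, they are under 2% for any 1 overlapping gene, and some chains, such as Col6a4 (1.49% and 1.9%), overlap more than 1. Per kilobase of exon and averaged over all 56 mice, Col18a1 had the highest level (173.1 CPM per kilobase), followed by Col1a1 (17.6), Col3a1 (16.81), Col14a1 (14.76), Col4a1 (12.32) and Col6a1 (10.15). This order belongs to the pooled mice: in chow, Col18a1 was followed by Col14a1 (median 5.17 CPM per kilobase), Col4a1 (3.953), Col4a2 (3.764), Col3a1 (2.606) and Col6a1 (2.486), with Col1a1 at 1.547.

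The first comparison asked how the collagen chains of DIO-MASH livers differed from those of chow livers. Of 34 chains, 21 were lower and 3 were higher in chow than in DIO-MASH vehicle (edgeR's quasi-likelihood test with Benjamini-Hochberg adjustment over 14105 genes). Across all genes tested, 28.9% were lower and 26.5% higher in that comparison, and the median log2 fold change was −2.02 over the chains against −0.01 over all genes. In 16 chains every chow mouse lay below every DIO-MASH vehicle mouse, beside 9.49% of all genes. Read by class, 5 of 9 fibrillar, 5 of 6 basement membrane, 5 of 6 beaded filament, 0 of 3 transmembrane and 6 of 10 other chains were lower in chow. The 3 chains that were higher in chow were Col18a1, Col25a1 and Col6a4.

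**Figure D1:**
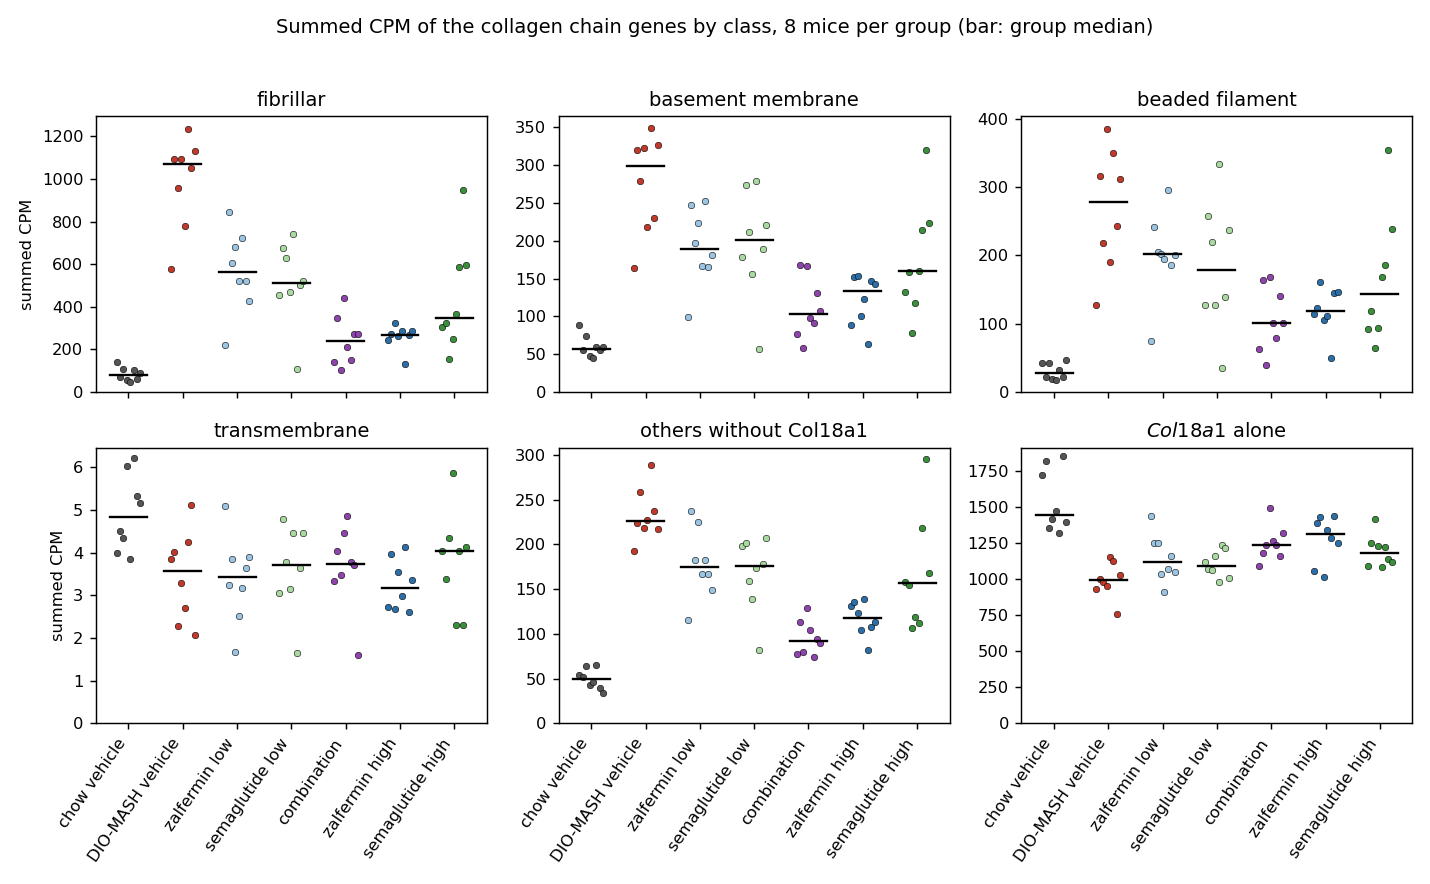
Summed level of each collagen class in every mouse, in CPM on a linear axis, by treatment group; each point is 1 mouse and each bar the group median. The fibrillar sum had a median of 79.25 in chow and 1071 in DIO-MASH vehicle, whereas the transmembrane sum stayed between 3.176 and 4.842 in the medians of all 7 groups.

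The class sums include the chains too low to test. In 4 classes (the others taken without Col18a1) the medians ran in one order, with chow lowest, then the combination, high-dose zalfermin, high-dose semaglutide, the low doses and DIO-MASH vehicle. The fibrillar sum ran from 46.92 to 143.3 CPM in chow (median 79.25) and from 578.7 to 1234 CPM in DIO-MASH vehicle (median 1071). In the treated groups its medians were 241 CPM (combination), 269.8 CPM (high-dose zalfermin), 346.3 CPM (high-dose semaglutide), 513.3 CPM (low-dose semaglutide) and 564.8 CPM (low-dose zalfermin). Mice of the combination (103.9 to 439.9 CPM) and of high-dose zalfermin (132.1 to 323.7 CPM) overlapped over most of their range, although their medians differed. The basement membrane sum had a median of 57.45 CPM in chow, 299.3 in DIO-MASH vehicle and 102.6 with the combination. The beaded filament sum had medians of 27.66, 277.5 and 101.3 CPM in the same groups. Among the other chains the sum without Col18a1 had medians of 49.25, 225.7 and 92.08 CPM.

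The mix of chains moved with the amount. Without Col18a1, reads of all chains together had a summed level with a median of 220.1 CPM in chow, 1862 in DIO-MASH vehicle and 545.4 with the combination. Types I and III (Col1a1, Col1a2 and Col3a1) took a median of 25.4% of those reads in chow and 50.98% in DIO-MASH vehicle, and the 2 groups did not overlap (13.98 to 33.66% against 48.26 to 54.07%). Their share had a median of 35.87% with the combination, 36.08% with high-dose zalfermin, 38.8% with high-dose semaglutide, 45.09% with low-dose zalfermin and 43.64% with low-dose semaglutide. With Col18a1 included, the total moved far less, from a median of 1640 CPM in chow to 2826 in DIO-MASH vehicle and 1794 with the combination.

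Col1a1 encodes the α1 chain of type I collagen, the most abundant protein of fibrotic scar. Its level ran from 5.098 to 28.31 CPM in chow (median 10.16) and from 122.5 to 343.7 CPM in DIO-MASH vehicle (median 283.7), so that no mouse of either group reached the other, and it was 21.8-fold lower in chow (log2 fold change −4.45 ± 0.431 SE, adjusted p = 3.47e-12, edgeR). Lowest, median and highest levels were 46.64, 152 and 234.4 CPM with low-dose zalfermin, and 19.24, 133.7 and 205.2 CPM with low-dose semaglutide. They were 11.03, 57.29 and 119.1 CPM with the combination, 19.56, 67.84 and 82.08 CPM with high-dose zalfermin, and 30.39, 91.32 and 238.6 CPM with high-dose semaglutide. Every mouse on the combination or on high-dose zalfermin lay below every DIO-MASH vehicle mouse, whereas mice on high-dose semaglutide and on either low dose overlapped with it.

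Col1a2 encodes the partner α2 chain of type I collagen. It ran from 6.658 to 43.9 CPM in chow (median 20.53) and from 135.9 to 289 CPM in DIO-MASH vehicle (median 269.1). The treated groups had lowest, median and highest levels of 53.56, 147.7 and 212.8 CPM (low-dose zalfermin), 23.58, 134.7 and 192.5 CPM (low-dose semaglutide), 22.44, 68.65 and 114.1 CPM (combination), 28.31, 75.72 and 106.4 CPM (high-dose zalfermin) and 36.15, 94.71 and 233.6 CPM (high-dose semaglutide). The order of the groups was that of Col1a1, but the distance between chow and DIO-MASH vehicle was smaller, at 11-fold (adjusted p = 1.87e-11, edgeR).

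Col3a1 encodes the single chain of type III collagen, which forms thinner fibres together with type I. Its level ran from 10.4 to 39.49 CPM in chow (median 25.58) and from 256.1 to 506.9 CPM in DIO-MASH vehicle (median 417.3), a 16.1-fold difference (log2 −4.01 ± 0.347 SE, adjusted p = 1.38e-13, edgeR). For the low doses, lowest, median and highest levels were 82.48, 215.5 and 331.1 CPM with low-dose zalfermin, and 34.37, 190 and 279.2 CPM with low-dose semaglutide. They were 38.55, 76.1 and 157.5 CPM with the combination, 53.09, 90.56 and 102.9 CPM with high-dose zalfermin and 55.11, 122.9 and 392.2 CPM with high-dose semaglutide. The mice on high-dose zalfermin formed the narrowest set of the treated groups, and the highest mouse on high-dose semaglutide lay within the range of DIO-MASH vehicle.

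Type V collagen is buried in type I fibres and limits their width. Its chain Col5a2 ran from 0.9363 to 4.259 CPM in chow (median 1.897) and from 14.48 to 27.34 CPM in DIO-MASH vehicle (median 24.2), 10.7-fold lower in chow (adjusted p = 1.56e-13, edgeR). The treated groups had lowest, median and highest levels of 5.634, 12.61 and 17.6 CPM (low-dose zalfermin), 4.34, 12.91 and 17.27 CPM (low-dose semaglutide), 2.776, 5.963 and 9.984 CPM (combination), 4.374, 6.415 and 7.969 CPM (high-dose zalfermin) and 4.164, 9.105 and 20.47 CPM (high-dose semaglutide). As with type I, the combination and high-dose zalfermin left no overlap with DIO-MASH vehicle. Col5a1 had medians of 4.524 CPM in chow and 40.84 CPM in DIO-MASH vehicle (7.71-fold lower in chow). The remaining fibrillar chains of appreciable level did not pass the test between chow and DIO-MASH vehicle: Col5a3 differed by 0.06 ± 0.21 (adjusted p = 0.822, edgeR) and Col27a1 by −0.36 ± 0.298 (adjusted p = 0.315, edgeR) on the log2 scale.

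**Figure D2:**
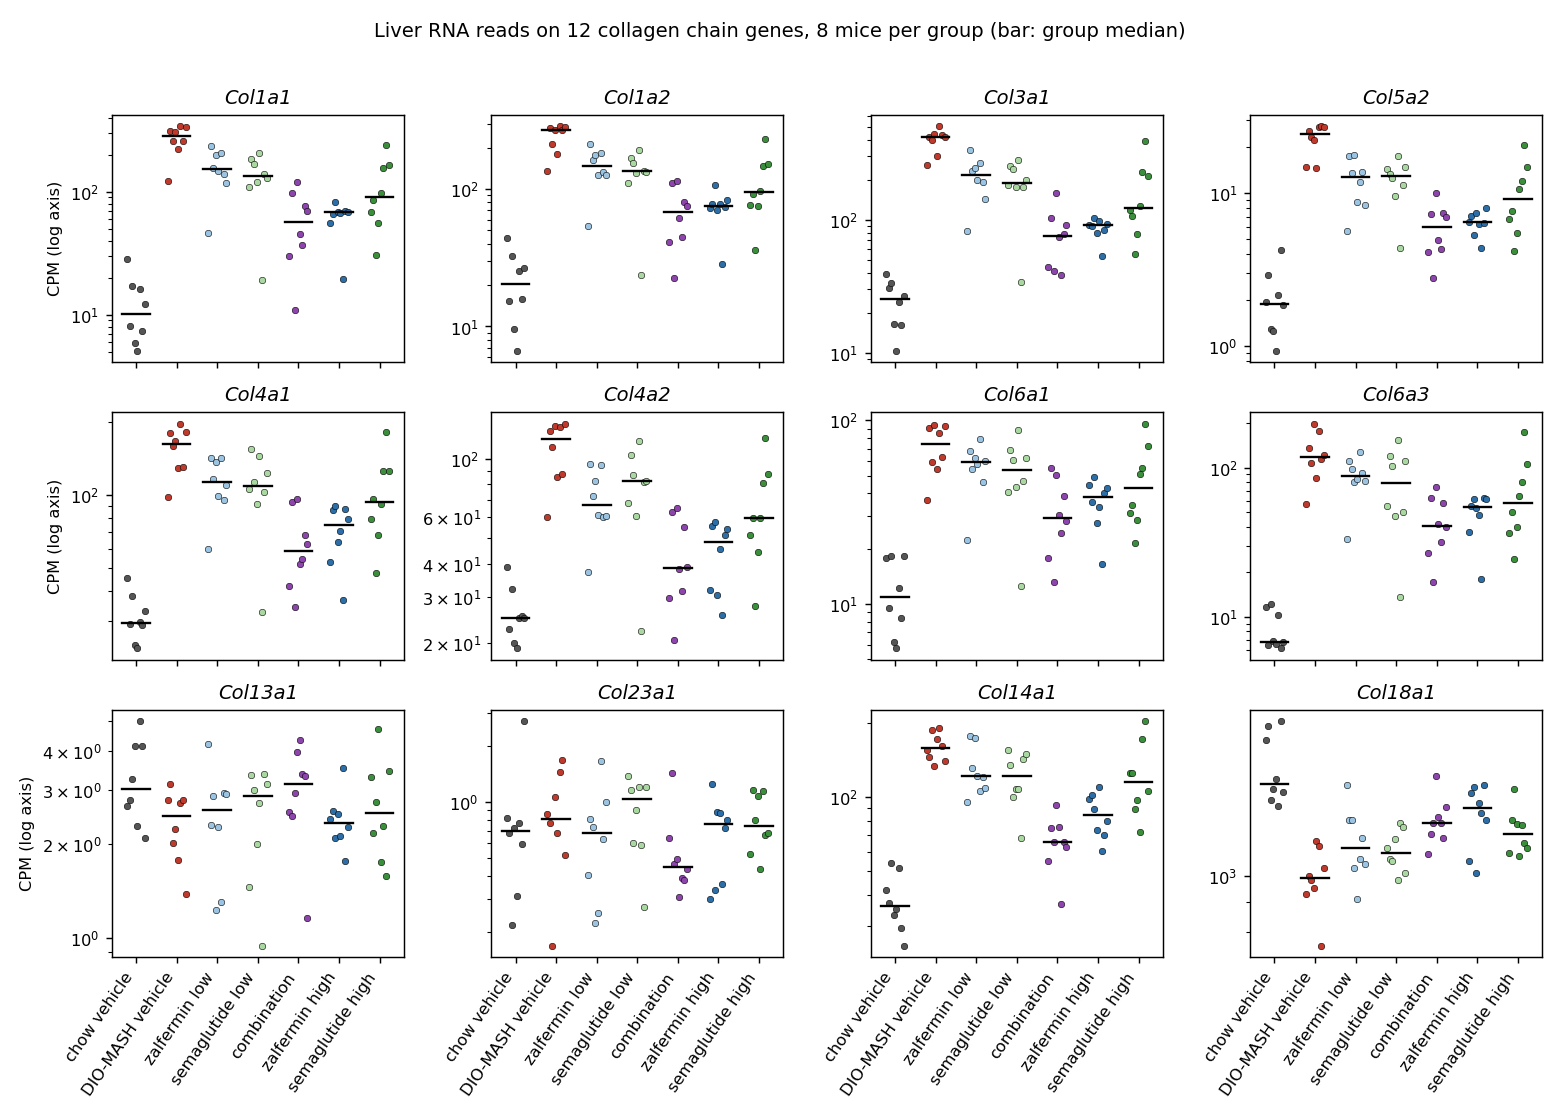
Level of the chains given in full in every mouse, in CPM on a log axis, by treatment group; each point is 1 mouse and each bar the group median. The medians of the fibrillar, type IV and type VI chains and of Col14a1 are lowest in chow and highest in DIO-MASH vehicle. Those of Col18a1 run the other way, and Col13a1 and Col23a1 show overlapping groups throughout.

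The α1α1α2 trimer of Col4a1 and Col4a2 is the ordinary type IV molecule of vessel and sinusoid walls. Col4a1 ran from 23.2 to 45.23 CPM in chow (median 29.51) and from 97.75 to 197.1 CPM in DIO-MASH vehicle (median 162.9), and was 4.95-fold lower in chow (adjusted p = 1.64e-11, edgeR). The treated groups had lowest, median and highest levels of 59.67, 113.2 and 141.4 CPM (low-dose zalfermin), 32.84, 109.2 and 154.5 CPM (low-dose semaglutide), 34.31, 58.54 and 96.18 CPM (combination), 36.81, 75.32 and 89.62 CPM (high-dose zalfermin) and 47.58, 93.82 and 181.5 CPM (high-dose semaglutide). The combination and high-dose zalfermin did not overlap with DIO-MASH vehicle, and the remaining treated groups did.

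Col4a2 ran from 19.14 to 38.77 CPM in chow (median 24.92) and from 60.11 to 136 CPM in DIO-MASH vehicle (median 119), 4.21-fold lower in chow. Its lowest, median and highest levels were 37.34, 66.8 and 95.6 CPM (low-dose zalfermin), 22.29, 82.18 and 116.5 CPM (low-dose semaglutide), 20.59, 38.64 and 65.05 CPM (combination), 25.64, 48.54 and 57.71 CPM (high-dose zalfermin) and 27.64, 59.68 and 120.3 CPM (high-dose semaglutide). High-dose zalfermin was the treated group with no mouse in the vehicle range. The minor type IV chains, found in specialised basement membranes, were scarce: Col4a5 had a median of 6.709 CPM and Col4a6 of 2.075 CPM in DIO-MASH vehicle, and they were 3.94-fold and 6.59-fold lower in chow (adjusted p = 0.000139 and 8.72e-05, edgeR). Col4a4 was 2.82-fold lower in chow, and Col4a3 did not pass (log2 −0.74 ± 0.532, adjusted p = 0.234, edgeR).

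Type VI collagen joins cells to the surrounding fibres, and its common molecule holds one chain each of Col6a1, Col6a2 and Col6a3. Col6a1 ran from 5.722 to 18.34 CPM in chow (median 10.89) and from 36.89 to 94.81 CPM in DIO-MASH vehicle (median 74.39), 6.1-fold lower in chow (adjusted p = 1.46e-09, edgeR). Its lowest, median and highest levels were 22.27, 59.25 and 78.97 CPM (low-dose zalfermin), 12.55, 53.81 and 88.18 CPM (low-dose semaglutide), 13.18, 29.47 and 54.76 CPM (combination), 16.52, 38.3 and 49.17 CPM (high-dose zalfermin) and 21.35, 42.9 and 96.21 CPM (high-dose semaglutide). Every treated group overlapped with DIO-MASH vehicle for this chain.

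Col6a3, whose C-terminal piece is released as endotrophin, ran from 6.152 to 12.18 CPM in chow (median 6.808) and from 57.1 to 197 CPM in DIO-MASH vehicle (median 117.3). It was 15-fold lower in chow (log2 −3.9 ± 0.38 SE, adjusted p = 3.62e-12, edgeR), the third largest fall among the chains. Lowest, median and highest levels were 33.13, 87.9 and 127.7 CPM (low-dose zalfermin), 13.61, 79.27 and 153.6 CPM (low-dose semaglutide), 17.19, 40.88 and 74.54 CPM (combination), 17.86, 54.49 and 62.52 CPM (high-dose zalfermin) and 24.36, 57.56 and 171.8 CPM (high-dose semaglutide). No mouse of any treated group fell into the chow range.

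The scarce type VI chain Col6a4 passed the test as higher in chow (adjusted p = 0.00248, edgeR), but this rested on 1 library. Its reads summed to 72 over the chow mice and 13 over the DIO-MASH vehicle mice, with a chow median of 0 CPM and 8.738 CPM in chow mouse 8. Without chow mouse 8 the log2 difference reversed to −2.35, and with DESeq2's Wald test it was −2.

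The transmembrane collagens sit in the plasma membrane with a short cytoplasmic end. Col13a1 ran from 2.092 to 4.995 CPM in chow (median 3.023) and from 1.383 to 3.126 CPM in DIO-MASH vehicle (median 2.478), and did not pass the test (log2 0.48 ± 0.242, adjusted p = 0.0855, edgeR). Its lowest, median and highest levels were 1.225, 2.588 and 4.209 CPM (low-dose zalfermin), 0.9384, 2.855 and 3.374 CPM (low-dose semaglutide), 1.16, 3.128 and 4.346 CPM (combination), 1.768, 2.345 and 3.523 CPM (high-dose zalfermin) and 1.585, 2.523 and 4.724 CPM (high-dose semaglutide). Col23a1 had medians of 0.699 CPM in chow and 0.8117 CPM in DIO-MASH vehicle, with ranges of 0.2174 to 2.708 and 0.1682 to 1.68 CPM, and its medians in the treated groups lay between 0.4488 and 1.032 CPM. All groups overlapped for both chains. Col25a1 had a median of 0.6912 CPM in chow and 0.08526 CPM in DIO-MASH vehicle and was higher in chow (adjusted p = 0.00157, edgeR), on 55 and 19 reads over the 8 mice of each group.

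Among the other chains, Col14a1, a fibril-associated collagen, ran from 24.86 to 54.14 CPM in chow (median 36.26) and from 133.5 to 190.6 CPM in DIO-MASH vehicle (median 158.6), 4.19-fold lower in chow (adjusted p = 2.01e-13, edgeR). Lowest, median and highest levels were 95.24, 121.2 and 176.3 CPM (low-dose zalfermin), 68.27, 121.6 and 154.9 CPM (low-dose semaglutide), 36.86, 65.93 and 93.2 CPM (combination), 60.38, 84.69 and 109.5 CPM (high-dose zalfermin) and 71.98, 115.4 and 202.9 CPM (high-dose semaglutide). The highest mouse on the combination lay below the lowest on low-dose zalfermin. Col15a1, Col16a1, Col12a1 and Col8a1 were lower in chow by 7.93-fold, 4.97-fold, 4.6-fold and 7.07-fold, and in each of them the mice of both groups stood apart.

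Col18a1 moved against the family. It ran from 1320 to 1855 CPM in chow (median 1443) and from 755 to 1151 CPM in DIO-MASH vehicle (median 990.2), so that every chow mouse lay above every vehicle mouse, and it was 1.56-fold higher in chow (log2 0.64 ± 0.0886 SE, adjusted p = 3e-08, edgeR). Lowest, median and highest levels were 910, 1116 and 1438 CPM (low-dose zalfermin), 982, 1093 and 1233 CPM (low-dose semaglutide), 1090, 1237 and 1491 CPM (combination), 1012, 1312 and 1440 CPM (high-dose zalfermin) and 1082, 1183 and 1417 CPM (high-dose semaglutide). The size of the Col18a1 difference depends on the scaling of the libraries. The scaling factors ran from 0.7079 to 0.8975 in chow and from 1.078 to 1.202 in DIO-MASH vehicle, and a lower factor raises CPM. Before scaling, the reads on Col18a1 summed to 121220 over the chow mice and 104043 over the vehicle mice. The difference without scaling was not tested. All treated medians of Col18a1 stood between those of DIO-MASH vehicle and chow. The summed level of the 6 hepatocyte markers moved the same way, with medians of 167900 CPM in chow, 71300 in DIO-MASH vehicle, 115200 in the combination group, and 104500 and 99350 with zalfermin and semaglutide at their high doses. Of these markers 6 were higher in chow, 5 were higher and 1 lower under the combination, 5 were higher with high-dose zalfermin and 2 under high-dose semaglutide. Among all genes tested, 26.5%, 10%, 8.54% and 1.43% were higher in these comparisons, in the same order, and 10.9% were lower under the combination. The part of the hepatocyte markers in the result was not tested.

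The next comparisons asked which chains each treatment changed against DIO-MASH vehicle. All of them share the same 8 vehicle mice. With the combination, 20 chains were lower and 1 was higher, beside 10.9% and 10% of all genes. The median log2 fold change was −1.23 over the 34 chains and −0.03 over all genes, and in 9 chains no combination mouse reached the vehicle range, beside 1.89% of all genes. The chains lower were 6 of 9 fibrillar, 3 of 6 basement membrane, 5 of 6 beaded filament, 1 of 3 transmembrane and 5 of 10 others.

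Col3a1 was 5.04-fold lower with the combination (log2 −2.33 ± 0.319 SE, adjusted p = 2.93e-07, edgeR), Col1a1 was 4.43-fold lower (−2.15 ± 0.382, adjusted p = 3.96e-05, edgeR) and Col5a2 was 3.76-fold lower (adjusted p = 3.16e-07, edgeR). The 9 chains without overlap were these 3 with Col1a2, Col5a1, Col4a1, Col12a1, Col14a1 and Col16a1, of which Col14a1 was 2.42-fold and Col16a1 2.07-fold lower. Col25a1 also passed as lower (adjusted p = 0.0078, edgeR), on 19 reads in the vehicle mice and 1 read in the combination mice. Col18a1 was the chain that was higher, by 1.26-fold (log2 0.33 ± 0.0883 SE, adjusted p = 0.00493, edgeR). Col5a3, which had not passed between chow and vehicle, was 1.5-fold lower with the combination (adjusted p = 0.041, edgeR). The call was lost in a fit of only the groups compared (adjusted p = 0.0576, edgeR), with the series of label numbers as covariate (adjusted p = 0.0594, edgeR), and when any 1 of DIO-MASH vehicle mice 1, 3, 5 and 8 or combination mice 1, 2, 5 and 7 was left out (adjusted p = 0.0563 to 0.126, edgeR).

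With high-dose zalfermin, 18 chains were lower and 1 was higher, beside 8.68% and 8.54% of all genes, and the median log2 fold change was −1.12. In 10 chains its mice did not reach the vehicle range, beside 2.47% of all genes; these were the 9 just named and Col4a2. Col3a1 was 4.58-fold lower (log2 −2.2 ± 0.318 SE, adjusted p = 1.09e-06, edgeR), Col1a1 4.34-fold lower (−2.12 ± 0.382, adjusted p = 5.15e-05, edgeR) and Col5a2 3.52-fold lower. Col18a1 was higher, by 0.36 ± 0.0884 on the log2 scale (adjusted p = 0.00228, edgeR).

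With high-dose semaglutide, 5 chains were lower and 0 higher, beside 1.0% and 1.43% of all genes, with a median log2 fold change of −0.69 over the chains. No chain separated the groups completely (0.255% of all genes did, on the lower side). The chains lower were Col3a1 (2.4-fold, adjusted p = 0.0189), Col5a2 (2.21-fold, adjusted p = 0.00993), Col1a1 (2.42-fold, adjusted p = 0.0493), Col5a1 (1.75-fold, adjusted p = 0.0428) and Col6a6 (2.51-fold, adjusted p = 0.0499), all by edgeR's quasi-likelihood test. The summed level of all chains without Col18a1 ran from 407 to 1920 CPM in this group, the widest span of the 7 groups, and mouse 7 was the highest. The test called 12 chains without mouse 7, 8 without low-dose semaglutide mouse 6, which enters the shared estimate of spread, and 1 without mouse 2, 3 or 4. With runs of neighbouring label numbers as a block it called 1 (Col5a2). It called 2 or 3 without mouse 1 or 5 or without DIO-MASH vehicle mouse 2, 3, 4, 6, 7 or 8.

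**Figure D3:**
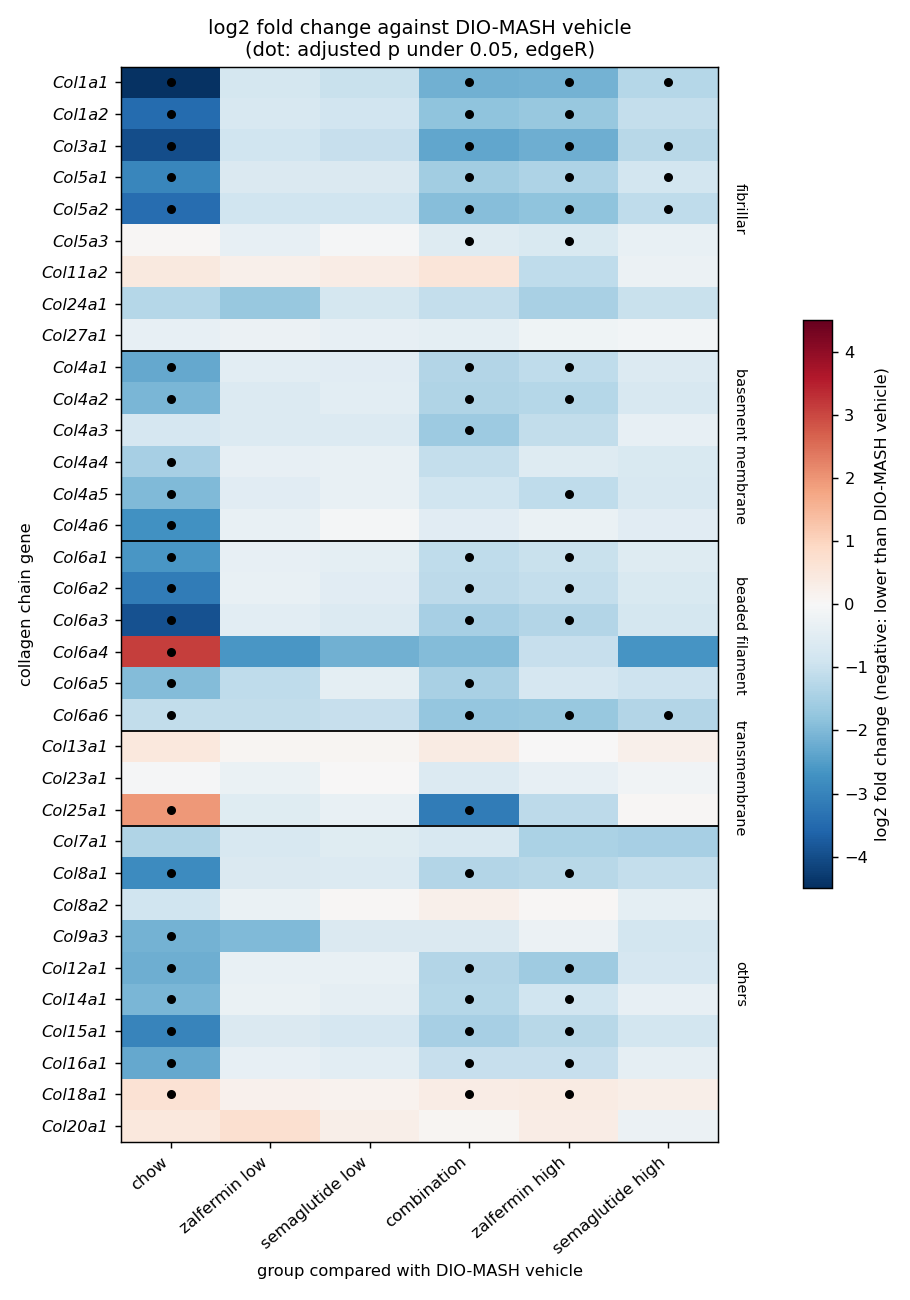
Log2 fold change of each of the 34 tested chains against DIO-MASH vehicle in 6 columns, ordered by class; colour gives the size and direction and a dot marks a call. The chow column holds 21 lower and 3 higher calls, the combination 20 and 1, high-dose zalfermin 18 and 1, high-dose semaglutide 5 and 0, and neither low dose holds any.

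Neither low dose given alone changed a chain at the threshold. With low-dose zalfermin edgeR called 0 of 34 chains (0.468% of all genes), 14 chains (and 1593 of 14105 genes) had an unadjusted p under 0.05, and DESeq2 called 1 (Col3a1). Without low-dose zalfermin mouse 4, or without low-dose semaglutide mouse 6, edgeR called 1. The log2 fold change was −0.8 ± 0.367 for Col1a1 (adjusted p = 0.396, edgeR), −0.9 ± 0.306 for Col3a1 (adjusted p = 0.183, edgeR) and −0.91 ± 0.251 for Col5a2 (adjusted p = 0.074, edgeR), and 30 of 34 values were below 0. With low-dose semaglutide edgeR called 0 chains (0.0% of all genes), 10 (and 1222 of 14105 genes) had an unadjusted p under 0.05, and DESeq2 called 1 (Col3a1). The log2 fold change was −1.01 ± 0.369 for Col1a1 (adjusted p = 0.407, edgeR) and −1.04 ± 0.306 for Col3a1 (adjusted p = 0.272, edgeR), and 28 of 34 values were below 0.

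The combination was then set against each drug alone. Against low-dose zalfermin, 9 chains were lower and 0 higher (3.35% of all genes were lower), among them Col3a1 (2.7-fold, adjusted p = 0.00229, edgeR), Col1a1 (2.56-fold, adjusted p = 0.0183, edgeR) and Col14a1 (1.95-fold, adjusted p = 0.000356, edgeR), and the last showed no overlap. Without low-dose zalfermin mouse 1 the count was 14. Against low-dose semaglutide, 7 chains were lower and 0 higher (2.28% of all genes were lower), led by Col3a1 (2.45-fold, adjusted p = 0.00825, edgeR), Col5a2 (2.03-fold, adjusted p = 0.0146, edgeR) and Col12a1 (2-fold, adjusted p = 0.0131, edgeR). Without low-dose semaglutide mouse 6 the count was 13.

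Against high-dose zalfermin, edgeR called 0 chains (0.503% of all genes), 2 chains (and 1544 of 14105 genes) had an unadjusted p under 0.05, and DESeq2 called 0. The median log2 difference over the chains was −0.12. Against high-dose semaglutide 2 chains were lower (1.03% of all genes were lower): Col14a1, by 1.86-fold (adjusted p = 0.00211, edgeR), and Col25a1, on 18 reads with semaglutide and 1 with the combination (adjusted p = 0.0443, edgeR). The count was 5 without high-dose semaglutide mouse 3, 4 without high-dose semaglutide mouse 4, low-dose semaglutide mouse 6 or combination mouse 2, and 1 without high-dose semaglutide mouse 6 or 7 or combination mouse 1, 5, 6, 7 or 8.

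Whether the combination differed from the sum of both low doses on the log2 scale was tested as an interaction in the same fit. EdgeR called 0 chains (0.0142% of all genes), 3 chains (and 952 of 14105 genes) had an unadjusted p under 0.05, and DESeq2 called 0. The interaction was −0.35 ± 0.519 for Col1a1, −0.39 ± 0.43 for Col3a1 and −0.04 ± 0.125 for Col18a1, so that each standard error exceeded the estimate it belongs to.

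Distances to chow remained in every treated group tested. The combination had 16 chains higher and 4 lower than chow, beside 17.4% and 15.0% of all genes. High-dose zalfermin had 16 higher and 4 lower, beside 19.7% and 17.6%, and high-dose semaglutide had 17 higher and 3 lower, beside 21.3% and 18.6%. Col6a3 stood 5.34-fold above chow with the combination (log2 2.42 ± 0.366 SE, adjusted p = 1.29e-06, edgeR), 6.03-fold with high-dose zalfermin and 8.67-fold with high-dose semaglutide, and its mice did not overlap with chow in any of the 3. Col1a1 stood 4.91-fold, 5.02-fold and 9.01-fold above chow in the same order. Col18a1 remained below chow, by 1.24-fold, 1.21-fold and 1.29-fold, but with runs of neighbouring label numbers as a block these calls were lost (adjusted p = 0.114, 0.242 and 0.05, edgeR). The chains lower than chow also included Col25a1 and Col6a4 in each of the 3 groups, the second of which depends on chow mouse 8, and Col5a3 with the combination and with high-dose zalfermin.

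Ratios between chains differed between groups. Of the 6 pairs read, 5 join chains of one collagen type, and Col3a1 to Col1a1 sets type III against type I. For each pair, the log2 ratio of reads in each mouse was compared with DIO-MASH vehicle by an exact two-sided permutation test, with Benjamini-Hochberg adjustment over 36 comparisons, and 11 passed. The ratio of Col1a1 to Col1a2 was 1.11 in DIO-MASH vehicle and 0.572 in chow, a log2 difference of −0.96 (SD 0.167 and 0.256, n = 8 each), and no mice overlapped (exact permutation p = 0.00016, the smallest this design allows; adjusted p = 0.00186). It was 0.807 with the combination (log2 difference −0.47, adjusted p = 0.00746, exact permutation test), 0.833 with high-dose zalfermin (−0.42, adjusted p = 0.00559, exact permutation test) and 0.937 with high-dose semaglutide (−0.25, adjusted p = 0.0468, exact permutation test). Type I molecules hold more α1 than α2 chains. The ratio of reads was highest in DIO-MASH vehicle, but it is not corrected for exon length (6563 bases for Col1a1, 12426 for Col1a2). Per kilobase of exon, the medians of Col1a1 and Col1a2 were 43.22 and 21.66 CPM in DIO-MASH vehicle and 1.547 and 1.652 CPM in chow.

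The ratio of Col6a3 to Col6a1 was 1.68 in DIO-MASH vehicle, 0.736 in chow (log2 difference −1.19, adjusted p = 0.00186, exact permutation test) and 1.37 with the combination (−0.3, adjusted p = 0.0434, exact permutation test). The ratio of Col6a1 to Col6a2 was higher in chow, by 0.51 on the log2 scale (adjusted p = 0.00186, exact permutation test). Col4a1 to Col4a2, which stand head to head and are transcribed away from each other, differed less: −0.25 in chow (adjusted p = 0.00559) and 0.15 with low-dose zalfermin (adjusted p = 0.0434), both by the exact permutation test. Col3a1 to Col1a1 was higher in chow, by 0.51 (adjusted p = 0.0468, exact permutation test), and in the 5 treated groups its difference lay between −0.11 and −0.02. Col5a1 to Col5a2 was higher with high-dose semaglutide by 0.34 (adjusted p = 0.0468, exact permutation test). The 5 differences with an adjusted p above 0.04 were each lost when 1 of several mice was left out, and the count of 11 fell to 6 without DIO-MASH vehicle mouse 3 or 4 and to 7 without DIO-MASH vehicle mouse 2 or 6, low-dose zalfermin mouse 4 or 8 or combination mouse 2, 3 or 6.

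**Figure D4:**
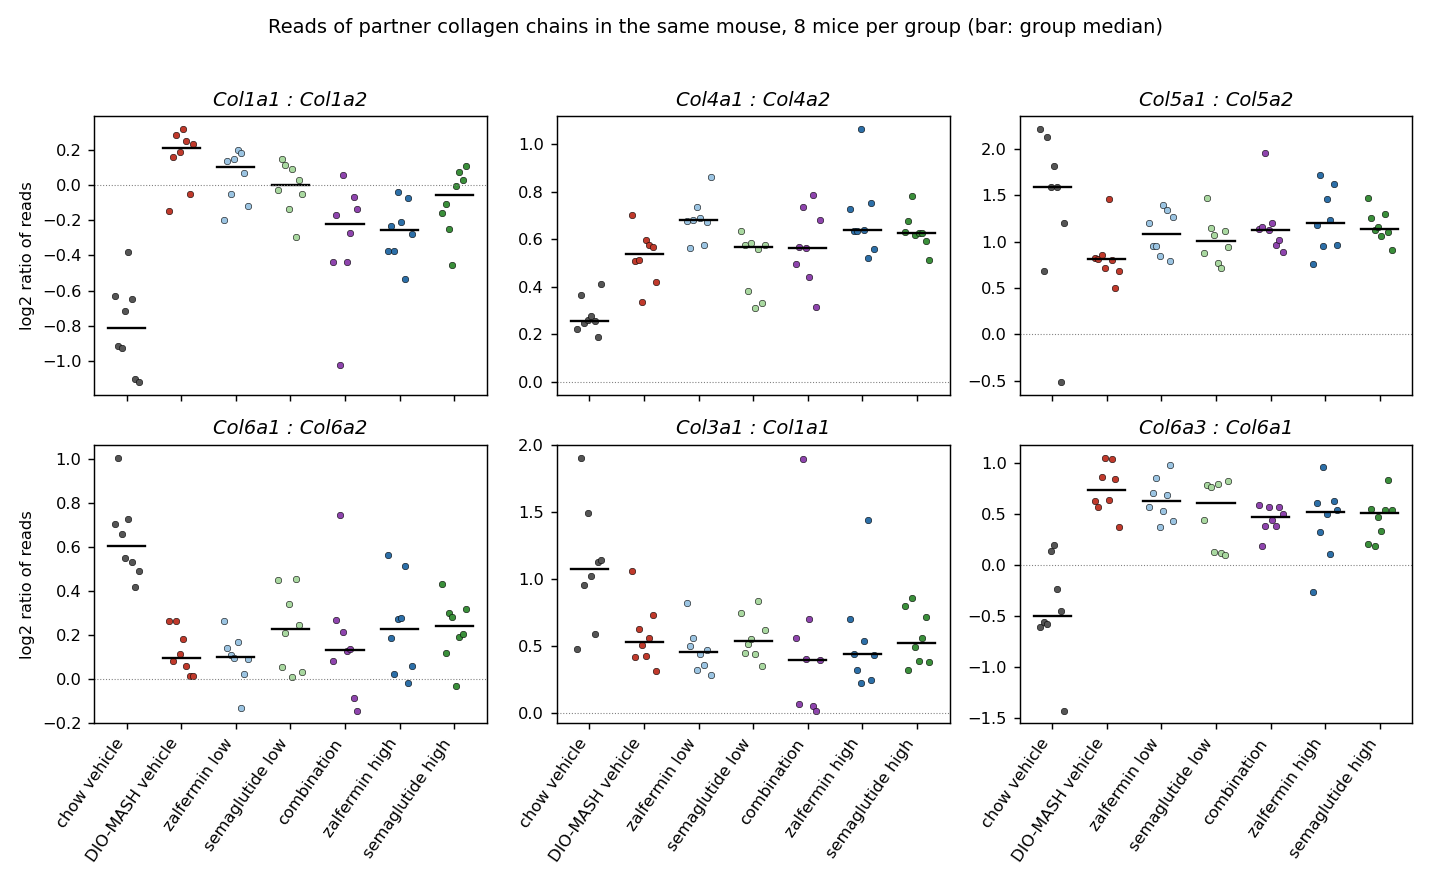
Log2 ratio of reads between paired chains in every mouse, by treatment group, for 6 pairs; each point is 1 mouse and each bar the group median. The log2 ratio of Col1a1 to Col1a2 has a median of −0.81 in chow and 0.21 in DIO-MASH vehicle, and that of Col6a3 to Col6a1 has medians of −0.5 and 0.74.

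Genes that modify, cross-link, cut or bind collagen were counted from fixed lists. Among all genes tested, 28.9% were lower and 26.5% higher in chow, 10.9% lower and 10% higher under the combination, 8.68% and 8.54% with high-dose zalfermin, and 1.0% and 1.43% with high-dose semaglutide. Of 26 tested genes for collagen processing and cross-linking, 17 were lower and 2 higher in chow than in DIO-MASH vehicle, 13 lower and 1 higher with the combination, 10 and 1 with high-dose zalfermin, and 3 and 0 with high-dose semaglutide. Lox, a lysyl oxidase that starts the cross-links between collagen molecules, had a log2 fold change of −3.4 ± 0.472 in chow, −2 ± 0.402 under the combination, −2.24 ± 0.421 with high-dose zalfermin and −1.56 ± 0.387 under high-dose semaglutide (adjusted p = 3.3e-08, 0.000232, 9.11e-05 and 0.0195, edgeR). Loxl2 had −1.74 ± 0.247 with the combination (adjusted p = 5.37e-07, edgeR). Summed over the list, the level hardly moved, with group medians from 2602 to 2902 CPM.

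Of 14 genes for collagen degradation and its inhibitors, 10 were lower in chow, 6 under the combination, 4 with high-dose zalfermin and 0 under high-dose semaglutide, and 0 were higher in any of these. The protease Mmp12 had a log2 fold change of −6.04 ± 0.516 and the inhibitor Timp1 of −4.76 ± 0.478 in chow (adjusted p = 9.45e-14 and 8.88e-12, edgeR), and the collagenase Mmp13 of −2.52 ± 0.458 with the combination (adjusted p = 5.33e-05, edgeR). Of 9 collagen receptors, 7 were lower in chow, 2 under the combination, 1 with high-dose zalfermin and 0 under high-dose semaglutide, so that the share with high-dose zalfermin was near that of all genes. Of 13 profibrotic signalling genes, 13 were lower in chow, 7 under the combination, 3 with high-dose zalfermin and 0 under high-dose semaglutide. In these 4 lists neither low dose called any gene.

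Markers of the cells that make collagen were counted in the same comparisons, to be read against the same shares of all genes. Of 8 markers of activated stellate cells and myofibroblasts, 6 were lower in chow, 4 with the combination and 0 with either high dose alone. The median log2 fold change of this list was −0.64 for both the combination and high-dose zalfermin. The difference in calls between them was therefore not one of median size. For semaglutide at its high dose the median was −0.37. The summed level of these markers ran from 170.8 to 293.4 CPM in chow and 694.1 to 1352 in DIO-MASH vehicle. It ran from 312.8 to 793 with the combination, 261.2 to 840.1 with high-dose zalfermin and, under high-dose semaglutide, 319.1 to 1405. Of 8 portal fibroblast markers, 7 were lower in chow, 4 under the combination, 4 with high-dose zalfermin and 2 under high-dose semaglutide, and their sum ran from 8.843 to 19.8 CPM in chow, 36.35 to 87.17 in DIO-MASH vehicle, 12.03 to 43.83, 23.81 to 35.47 and 14.88 to 71.38 CPM. Of 8 quiescent stellate cell markers, 7 were lower in chow, 6 under the combination, 3 with high-dose zalfermin and 0 under high-dose semaglutide. Their sums ran from 159 to 343.2 CPM in chow, 402.7 to 548.3 in DIO-MASH vehicle, 247.7 to 381.4 with the combination and 289.3 to 460.9 with high-dose zalfermin. The part of these cells in the collagen results was not tested.

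The remaining marker lists were counted in the same way. Among all genes tested, 28.9% were lower and 26.5% higher in chow, and 10.9% and 10% with the combination. A single call with the combination among 7 or 8 markers is near that share. Of 7 cholangiocyte markers, 4 were lower in chow and 1 with the combination, with summed medians of 49.17 CPM in chow, 389.6 in DIO-MASH vehicle and 196.4 with the combination. The 1 lower with the combination was Spp1, which is also in the list of activated stellate cell markers and was counted there too. Of 8 sinusoidal endothelial markers, 4 were lower and 1 higher in chow and 1 was lower with the combination, and their sum had medians between 272 and 343 CPM in all 7 groups. Of 8 macrophage markers, 4 were lower and 2 higher in chow, and 1 was lower and 3 were higher with the combination. Of 6 mesothelial markers, 2 were lower in chow, near the share of all genes, and the median log2 fold change of the list was 0.32. Of 5 smooth muscle markers, 3 were higher in chow, where their sum reached 116.2 CPM in 1 mouse against a group median of 9.181 CPM. Of 5 adipocyte genes only Cidec and Fabp4 could be tested, and both were lower in chow, with the combination and with high-dose zalfermin; the defining markers Adipoq, Plin1 and Lep did not pass the filter. The single pancreas marker tested, Cela1, was higher in chow and lower with the combination, with group medians of 6.695 to 20.92 CPM.

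The numbers on the mouse labels fall into series that may mark cohorts, and Col1a1 kept its direction within each of the 3 larger ones. Within them its log2 difference between chow and DIO-MASH vehicle was −3.67, −3.92 and −5.22, and for the combination −2.13, −2.67 and −2.02. For high-dose semaglutide it was −1.8, −1.09 and −0.59. Not every chain kept its direction: Col6a1 with high-dose semaglutide stood at −1.01, −0.35 and 0.18, and Col18a1 with low-dose zalfermin at 0.44, −0.08 and 0.24. Each of these values rests on 1 to 4 mice in an arm.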

How the data were processed

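Per the labels and the study's methods, liver RNA was made into stranded poly(A) libraries, and the authors deposited whole-number read counts per gene, unnormalized. The methods name STAR with an Ensembl GRCm38 annotation, whereas the submitters' processing notes name Trim Galore 0.6.4 and Salmon 1.9.0 on GRCm38; which program made the counts, and its strand setting, is not given in the sources used here. Coordinates were matched by gene identifier to a GRCm38 annotation.

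Genes with at least 5 reads in at least 3 of 56 mice were kept. Counts were scaled by TMM, and CPM are counts per 1000000 of the scaled total. One edgeR 4.0.16 quasi-likelihood fit (R 4.3.3) over the 7 groups, without covariates, gave every comparison, with Benjamini-Hochberg adjustment over 14105 genes and a threshold of 0.05. The biological coefficient of variation was 22.6%. Partner ratios used 0.5 added reads and all 12870 splits of 8 against 8 mice. On simulated counts with 200 genes changed 2-fold in the combination against DIO-MASH vehicle (13983 genes), edgeR recovered 84% with 5 false calls. For the interaction it recovered 70% with 10 false calls. The genes changed were drawn from those averaging 1 CPM or more in DIO-MASH vehicle, so these shares do not cover scarcer chains.

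Chains given in full were 8 fixed ones (Col1a1, Col1a2, Col3a1, Col5a2, Col4a1, Col4a2, Col6a1 and Col6a3) and the 2 most abundant of the transmembrane and of the other chains. Within a comparison, chains were named if they went against most called chains, were among the 3 largest falls or rises, averaged 1 CPM or more without overlap, or averaged as much and were not called between chow and DIO-MASH vehicle; other chains named were chosen after their values were seen. In companion and marker lists, the 2 called genes with the largest changes could be named. Members and lists were chosen with earlier results of these data known. Alternatives were DESeq2 1.42.0, other scaling and filters, a fit of only the groups compared, the label-number series as a covariate, runs of neighbouring label numbers (steps of at most 10, each treatment at most once) as a block, and leaving out each mouse in turn. The runs were cut wherever a preset order of the groups came back. No 2 libraries of a group agreed within sampling noise (smallest chi-square per degree of freedom 7.57).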

Additional observations from a re-analysis of the deposited data

Results flagged for a closer look

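Single mice stood apart in 20 of 84 sets of 8 mice (12 chains in 7 groups), by a gap to the nearest mouse beyond Dixon's 95% limit; chance alone gives about 1 in 20 sets, and the chains of 1 mouse are not independent. Low-dose semaglutide mouse 6 was the lowest of its group for Col1a1 (19.24 CPM, the others 109 to 205.2), Col1a2 (23.58 CPM), Col3a1 (34.37 CPM, the others 174.8 to 279.2), Col5a2 (4.34 CPM), Col4a1 (32.84 CPM), Col4a2 (22.29 CPM) and Col6a1 (12.55 CPM). Low-dose zalfermin mouse 1 was the lowest for Col1a1 (46.64 CPM, the others 117.2 to 234.4), Col1a2 (53.56 CPM), Col4a1 (59.67 CPM), Col6a1 (22.27 CPM) and Col6a3 (33.13 CPM). High-dose zalfermin mouse 6 was the lowest for Col1a1 (19.56 CPM, the others 55.79 to 82.08), Col1a2 (28.31 CPM), Col3a1 (53.09 CPM) and Col6a3 (17.86 CPM). DIO-MASH vehicle mouse 1 was the lowest for Col1a1 (122.5 CPM, the others 224.6 to 343.7).

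Among the transmembrane chains, combination mouse 8 was the lowest for Col13a1 (1.16 CPM, the others 2.471 to 4.346). Chow mouse 8 was the highest for Col23a1 (2.708 CPM, the others 0.2174 to 0.8205), and combination mouse 2 likewise (1.431 CPM, the others 0.3105 to 0.638).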

How the results depend on the processing

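The counts of chains called between chow and DIO-MASH vehicle, for the combination and for high-dose zalfermin stayed within 1.5 times under every alternative. The count for low-dose zalfermin went from 0 to 1 with DESeq2 and to 3 in a fit of only the groups compared (Col5a2, Col3a1 and Col5a1), that for low-dose semaglutide to 1 with DESeq2, that for high-dose semaglutide from 5 to 8 with DESeq2 and to 2 without a filter, that of the combination against low-dose semaglutide from 7 to 4 and against high-dose semaglutide from 2 to 1 in a fit of only the groups compared. Leaving out 1 mouse at a time gave 24 to 25 chains for chow, 0 to 1 for zalfermin and 0 for semaglutide at the low dose, 19 to 22 for the combination, 18 to 19 for high-dose zalfermin, 1 to 12 for high-dose semaglutide, 7 to 14 for the combination against low-dose zalfermin, 5 to 13 against low-dose semaglutide, 0 against high-dose zalfermin, 1 to 5 against high-dose semaglutide, 18 to 22 against chow, 19 to 21 for high-dose zalfermin against chow, 19 to 20 for high-dose semaglutide against chow, 0 for the interaction and 6 to 13 for the partner ratios. Without low-dose semaglutide mouse 6, high-dose semaglutide had 8 calls and the combination had 11 against low-dose zalfermin and 4 against high-dose semaglutide. The cause of these moves was not tested.

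The sign turned for few chains. The log2 difference of Col6a4 with DESeq2 was −2 between chow and DIO-MASH vehicle, 0.11 between the combination and chow and 1.28 between high-dose zalfermin and chow, and leaving out 1 mouse at a time it ran from −2.35 to 3.71, −5.64 to 0.37 and −6.72 to 1.29. Differences that had not passed a test also crossed 0 when 1 mouse was left out: Col23a1 ran from −0.55 to 0.14 for chow, −0.13 to 0.23 for low-dose semaglutide and −0.29 to 0.06 for high-dose semaglutide, and Col13a1 from −0.06 to 0.19 for low-dose zalfermin, 0.0 to 0.19 at the low dose of semaglutide and −0.08 to 0.09 for high-dose zalfermin (−0.01 with the series of label numbers as covariate). The labels name no pairs, but their numbers were cut into 15 runs (4 of them of 1 mouse). A run ended where a preset order of the groups came back or the step exceeded 10, so the order within runs was imposed. A fit with these runs as a replicate block was chosen after seeing the data: it called 23 chains for chow, 20 for the combination, 19 for high-dose zalfermin, 1 for high-dose semaglutide and 1 for the combination against high-dose semaglutide, and Col13a1 stood at −0.01 for low-dose and −0.05 for high-dose zalfermin. The cause was not tested.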
